A study of Mus musculus with 2 samples.

Results

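The 10 genes described here encode proteins of megakaryocytes and platelets: Itga2b and Itgb3 (the integrin receptor for fibrinogen), Gp1bb, Gp9 and Gp5 (subunits of the GPIb-IX-V receptor), Vwf, Pf4, Selp and Treml1 (contents and membrane proteins of alpha granules) and Rab27b (a GTPase of granule secretion). They were chosen by name, with earlier results of these data known. Every probe set was taken whose platform annotation names one of them and no other gene. All 10 genes had such a probe set, 17 probe sets in all, out of 18193 genes and 45037 probe sets in the value table. Itga2b, Vwf, Pf4, Gp9, Gp5 and Treml1 had 1 probe set each, Itgb3 and Gp1bb had 2, Selp had 3 and Rab27b had 4. A further probe set, which names Gp1bb together with a neighbouring gene, was not used.

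The series holds 2 Affymetrix arrays of mouse hematopoietic stem cells (HSC), the marrow cells from which all blood lineages arise. Cells labelled SIRT6 knockout gave the total RNA of the first array, called the KO-labelled array, and wild type cells that of the second, the WT array, both from mice aged 3 months. Sirt6 encodes a nuclear NAD-dependent deacylase of histones. The sources used here do not give the kind of Sirt6 allele, the sorting of the cells or the number of animals that gave RNA. With 1 array per genotype there was no replicate check, so no SD between samples, test or p-value was computed, and each difference below is a difference between these RNA samples.

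Platelets are shed by megakaryocytes, large marrow cells that descend from HSC. Circulating platelets attach to damaged vessel walls when GPIb-IX-V binds von Willebrand factor, and they bind each other when activated alphaIIb-beta3 integrin binds fibrinogen. Alpha granules store adhesion proteins and chemokines and bring P-selectin to the surface on release. Several of these genes are also transcribed in stem cells: Vwf marks HSC biased towards platelet production, and Itga2b (CD41) and Selp are found on subsets of HSC.

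The values were MAS5 signal intensities, which condense each probe set into 1 value per array. The medians were 60.7 on the KO-labelled array and 60.8 on the WT array, so the values were compared as deposited. Signals under 60.5 were treated as too dim to compare; this floor is the middle value, over the whole table, of the log2 signal averaged over the arrays. A gene with several probe sets was counted by its brightest one, and differences of at least 1.5-fold (0.58 on the log2 scale) were counted. Sirt6, the targeted gene, read 174 on the KO-labelled array and 124 on the WT array with its 1 probe set. The signal was thus not lower on the KO-labelled array, and because the part of the transcript that the probe set covers is not given, it does not check the label. Of 18 genes listed as HSC markers, 16 had a probe set of their own, and all 16 lay above the floor. The list also holds Cd34, Flt3 and Cd48, which are carried by progenitors, so these signals do not check the purity of the cells.

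Upstream sequences from RefSeq (GRCm38.p6) are shown for Itga2b and Pf4, which differed by more than 1.5-fold in opposite directions, and for Gp9 and Gp5, which differed by less. Each is the 250 bases before the transcription start that the RefSeq table uses, in the direction of the gene. Capitals mark GATAA, letters of GATA sites, and AGGAAG or CGGAAG, letters of ETS sites, on either strand. A match on the opposite strand thus appears as its reverse complement. Other forms of these sites, such as GATAG, were not sought and are not marked. In the windows of these genes no match overlapped another. GATA1 and the ETS factor FLI1 are central regulators of megakaryocyte genes.
Itga2b, chr11:102469884-102470133, minus strand: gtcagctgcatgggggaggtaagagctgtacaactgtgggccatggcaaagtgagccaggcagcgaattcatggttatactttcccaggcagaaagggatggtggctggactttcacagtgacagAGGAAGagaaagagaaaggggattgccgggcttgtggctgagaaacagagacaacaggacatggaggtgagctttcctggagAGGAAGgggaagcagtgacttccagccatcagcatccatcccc
Pf4, chr5:90772185-90772434, plus strand: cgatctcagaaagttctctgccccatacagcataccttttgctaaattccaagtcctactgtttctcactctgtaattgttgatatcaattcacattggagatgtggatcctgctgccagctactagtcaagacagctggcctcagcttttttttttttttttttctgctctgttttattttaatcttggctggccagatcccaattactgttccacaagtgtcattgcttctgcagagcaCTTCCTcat
Gp9, chr6:87777820-87778069, plus strand: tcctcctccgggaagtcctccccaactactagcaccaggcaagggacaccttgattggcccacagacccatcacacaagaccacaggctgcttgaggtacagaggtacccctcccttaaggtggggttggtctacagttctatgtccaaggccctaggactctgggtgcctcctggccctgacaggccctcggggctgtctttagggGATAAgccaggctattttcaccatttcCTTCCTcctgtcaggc
Gp5, chr16:30310782-30311031, minus strand: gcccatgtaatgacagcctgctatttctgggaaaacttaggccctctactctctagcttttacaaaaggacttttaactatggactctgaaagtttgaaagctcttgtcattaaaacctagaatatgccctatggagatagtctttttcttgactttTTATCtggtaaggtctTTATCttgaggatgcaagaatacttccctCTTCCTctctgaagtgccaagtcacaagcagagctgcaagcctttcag

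The table of upstream sequences held 7 of the 10 genes: these 4, Gp1bb, Selp and Treml1. The ETS letters occurred in 6 of the 7 windows, with Treml1 the exception, against 39.2% of all 32851 windows of the same length. The GATAA letters occurred in 2 of the 7, Gp9 and Gp5, against 22.6% of all windows. Itga2b held 2 copies of AGGAAG, beginning 125 and 43 bases before the start, and Pf4 held 1 on the opposite strand, 9 bases before it. Itga2b and Pf4, whose signals differed in opposite directions, thus both held ETS letters and neither held GATAA in this window. A match of letters is not a bound site, and none of these windows was tested for binding.

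Among the 10 genes, 9 lay above the floor on both arrays and Gp1bb lay under it on both. Of the 9, Itga2b passed 1.5-fold towards higher signal on the KO-labelled array, Vwf, Pf4 and Rab27b passed it towards lower signal, and 5 lay between. Of all 11547 genes above the floor on 1 array or both, 1.71% passed that size upwards and 2.63% downwards, 4.35% in either direction. The members were chosen with earlier results of these data known, so their counts beside these shares are a description only. The median log2 ratio of the 9 genes was 0.09, against 0.0023 over all measured genes, so the differences did not run one way. None of the 9 reached 2-fold, which 0.970% of measured genes did. By probe set, 12 of the 17 lay above the floor on both arrays, 1 of them past 1.5-fold upwards and 3 downwards. Among all 19881 measured probe sets that name 1 gene, 1.60% passed it upwards and 3.55% downwards, 5.15% in all.

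**Figure D1:**
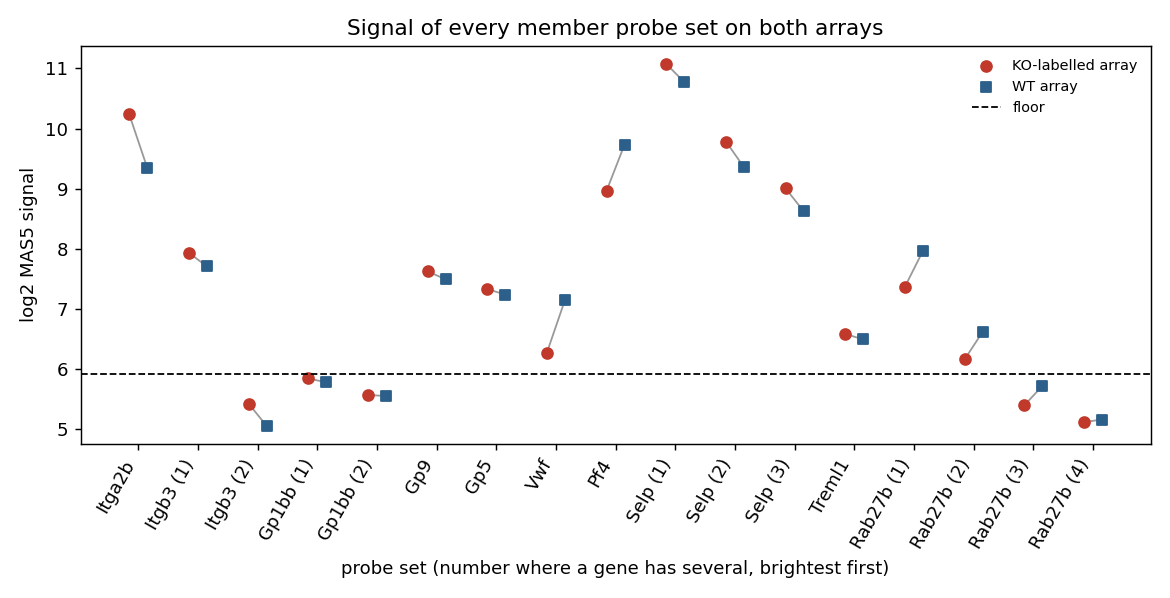
Log2 MAS5 signal (y axis) of the 17 probe sets of the 10 genes (x axis), with red circles for the KO-labelled array and blue squares for the WT array, 1 value per array, joined by a grey line; the dashed line is the floor. Itga2b and the 3 Selp probe sets are higher on the KO-labelled array, and Vwf, Pf4 and the 2 brighter Rab27b probe sets are lower, while both Gp1bb probe sets lie under the floor.

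The integrin subunits are described first. Itga2b, the alphaIIb chain, which is specific to the platelet fibrinogen receptor within the integrin family, read 1205 on the KO-labelled array and 653 on the WT array, a log2 ratio of 0.88 (1.85-fold). Because MAS5 ratios scatter more at low signal, each ratio was set beside the central 95% of the ratios of all probe sets with a mean log2 signal within 0.5 of its own. For Itga2b this range, over 2883 probe sets, was -0.47 to 0.39. Its ratio lay above that range, and 0.382% of those probe sets had a higher one.

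Itgb3, the beta3 chain with which alphaIIb pairs, read 245 on the KO-labelled array and 209 on the WT array with its brighter probe set (log2 ratio 0.23). Its other probe set read 43.0 on the KO-labelled array and 33.3 on the WT array, under the floor on both. The brighter ratio lay well inside the range of probe sets of like signal, -0.80 to 0.50. The subunits of the receptor were therefore both higher on the KO-labelled array, but only the alpha chain passed 1.5-fold.

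Signals of the GPIb-IX-V subunits were close to equal on the arrays. Gp9, a small leucine-rich subunit needed for surface expression of the complex, read 198 on the KO-labelled array and 180 on the WT array (log2 ratio 0.13). Gp5, the subunit cleaved by thrombin, read 161 on the KO-labelled array and 151 on the WT array (log2 ratio 0.09). Both ratios lay inside the central 95% of probe sets of like signal, of which 25.2% were higher than Gp9 and 32.1% higher than Gp5.

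Gp1bb, the beta chain linked by disulfide bonds to the von Willebrand factor-binding alpha chain, read 57.6 and 47.5 on its probe sets on the KO-labelled array, and 54.9 and 46.9 on the WT array. Since all 4 values lay under the floor, no ratio is given. Gp1ba, the alpha chain itself, had no probe set naming it alone and was not analysed here.

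The alpha granule genes differed among themselves. Vwf, the multimeric adhesion protein that GPIb binds, read 77.5 on the KO-labelled array and 141 on the WT array, 1.82-fold lower (log2 ratio -0.87). The lower of these signals was near the floor, where ratios scatter widely: among 5837 probe sets of like signal the central 95% ran from -0.95 to 0.60. The ratio of Vwf lay inside that range, and 3.32% of those probe sets had a lower one. With a pseudocount of 1 floor added to both signals it was -0.55, short of 1.5-fold, and with the floor at percentile 75 Vwf was not measured.

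Pf4, platelet factor 4 or CXCL4, a chemokine that megakaryocytes release and that restrains HSC cycling in mouse marrow, read 501 on the KO-labelled array and 851 on the WT array. It was 1.70-fold lower (log2 ratio -0.76). Its signals lay far above the floor, and its ratio fell below the central 95% of 3564 probe sets of like signal, -0.51 to 0.42, with 1.04% of them lower. Itga2b and Pf4 were thus the genes whose brightest probe set left that range, one on each side.

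Selp encodes P-selectin, the alpha granule membrane protein that binds leukocytes once exposed. Its 3 probe sets read 2154, 881 and 514 on the KO-labelled array, against 1751, 657 and 395 on the WT array. All 3 were higher on the KO-labelled array, with log2 ratios of 0.30, 0.42 and 0.38, so none reached 1.5-fold. The spread among them was small beside 0.22, the SD of log2 ratios between probe sets of the same gene over 4632 genes with at least 2 above the floor on both arrays. The middle one lay above the central 95% for its signal (-0.48 to 0.39), and the other ratios lay inside theirs. Probe sets of a gene share the RNA sample, so their accord bears on the measurement and not on the genotype.

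Treml1, a receptor of the Trem family held in the alpha granule membrane of megakaryocytes and platelets, read 95.9 on the KO-labelled array and 90.2 on the WT array (log2 ratio 0.09). This ratio lay inside the central 95% of probe sets of like signal, 37% of which were higher.

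Rab27b, which with Rab27a drives the docking and release of platelet granules in mice, was lower on the KO-labelled array on both of its probe sets above the floor. The brightest read 166 on the KO-labelled array and 249 on the WT array, 1.51-fold lower (log2 ratio -0.59), just past the size used for counting. Under quantile normalization, loess and the median over probe sets the log2 ratio was -0.53, -0.56 and -0.52, short of 1.5-fold. The next read 71.7 on the KO-labelled array and 98.1 on the WT array (log2 ratio -0.45). The 2 dimmest read 42.2 and 34.7 on the KO-labelled array, against 52.6 and 35.8 on the WT array, under the floor on both. Both ratios lay inside the central 95% for their signal, which for the brightest ran from -0.80 to 0.51.

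**Figure D2:**
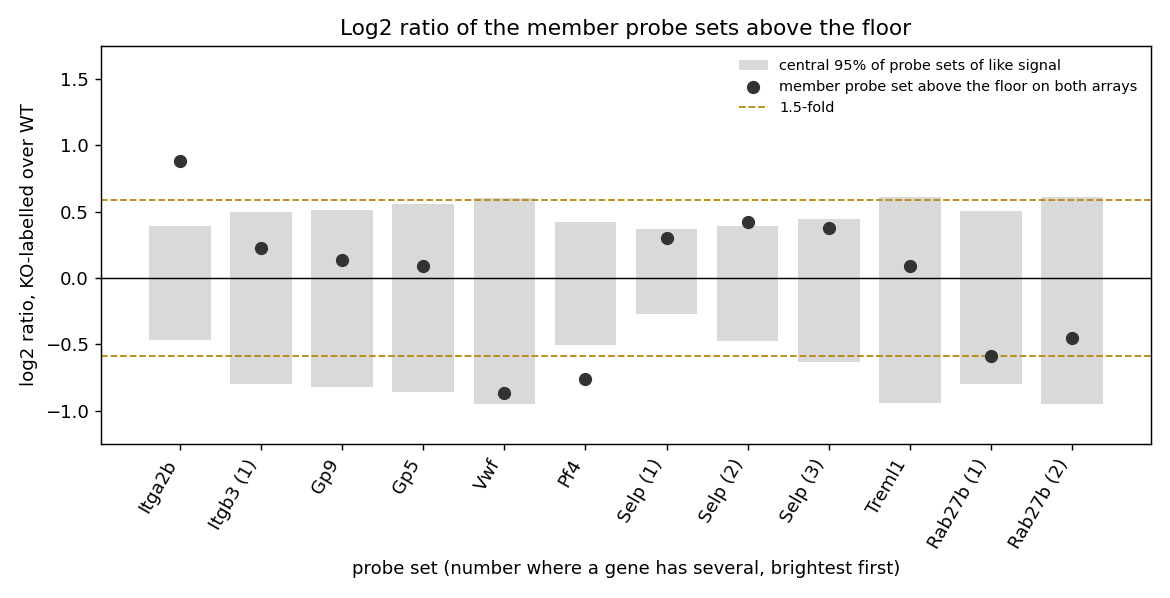
Log2 ratio of the KO-labelled array over the WT array (y axis) for the 12 probe sets with both signals over the floor (x axis, black points), with the central 95% of probe sets of like signal as grey bars and 1.5-fold as dashed lines. Itga2b at 0.88, Pf4 at -0.76 and the Selp probe set at 0.42 lie outside their grey bars, and Vwf at -0.87 lies inside its wider one.

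**Figure D3:**
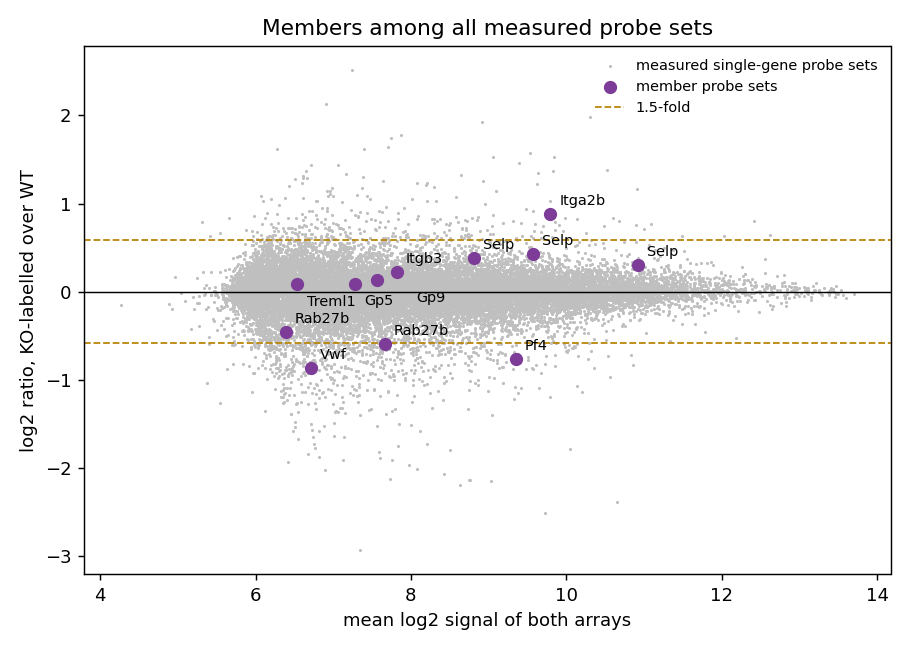
Log2 ratio (y axis) against the mean log2 signal of both arrays (x axis) for the 19881 measured probe sets that name 1 gene (grey) and the 12 probe sets of the megakaryocyte and platelet genes above the floor (purple). The grey cloud narrows as the signal rises, so the ratio of 0.88 of Itga2b stands farther from its neighbours than the -0.87 of Vwf does.

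Other platelet genes, and a list of stem cell genes, were followed in 8 lists of receptors, granule cargo, secretion, signalling, cytoskeleton, transcription factors and stem cell genes. Of 109 genes listed, 85 were measured. Of these, 4 passed 1.5-fold towards higher signal on the KO-labelled array, 9 towards lower signal and 72 lay between, and the median log2 ratio was 0.03. The counts over all 85 genes can be read against the 4.35% of all measured genes that passed 1.5-fold in either direction. They include the list of platelet-primed or aged HSC genes, where 5 of 9 measured passed it, so they do not describe platelet genes alone. The lists too were chosen with earlier results of these data known, so this is a description only.

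Of the 103 listed genes with a probe set, 18 lay under the floor on both arrays, and platelet genes stood on both sides of it. Among those under it, Ppbp, an abundant alpha granule chemokine, read 38.6 on the KO-labelled array and 37.1 on the WT array. Tubb1, the platelet beta-tubulin, read 30.1 on the KO-labelled array and 27.7 on the WT array, and the myosin light chain Myl9 read 17.0 on each. Clec1b, Cd36, Itga2, P2ry1, P2ry12, F2rl2, Thbs1 and F5, which encode platelet receptors and granule proteins, were likewise under the floor on both arrays. Above it on both were Gp6, Mmrn1 and P2rx1, the last an ATP-gated channel of platelets that read 207 on the KO-labelled array and 236 on the WT array, as were Pf4, Gp9, Gp5 and Treml1 of the 10 genes. The genes under the floor and P2rx1 were named after their values were seen.

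Of 7 measured adhesion and collagen receptors, 2 were at least 1.5-fold lower and 0 higher. Esam, an endothelial adhesion molecule that also marks HSC and is counted in both marker lists, read 424 on the KO-labelled array and 724 on the WT array (log2 ratio -0.77). F11r, the junctional adhesion molecule A, read 297 on the KO-labelled array and 486 on the WT array (log2 ratio -0.71). Gp6, the collagen receptor, read 101 on the KO-labelled array and 70.7 on the WT array (log2 ratio 0.52), short of 1.5-fold.

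Of 6 measured receptors for soluble agonists, 1 passed 1.5-fold. Ptgir, the receptor for prostacyclin, which inhibits platelets, read 141 on the KO-labelled array and 74.8 on the WT array (log2 ratio 0.92). F2rl3, the thrombin receptor PAR4, had a log2 ratio of -0.37 and Ptger3, a prostaglandin E2 receptor, of -0.34.

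The other alpha granule cargo genes also went both ways, 2 of 7 measured past 1.5-fold upwards and 2 downwards. F13a1, the A subunit of clotting factor XIII, which monocytes also make and which is counted among their markers too, read 1273 on the KO-labelled array and 428 on the WT array (log2 ratio 1.57). Tgfb1 read 495 on the KO-labelled array and 321 on the WT array (log2 ratio 0.62), though its second measured probe set gave -0.32. Mmrn1, multimerin, a binding protein of factor V, read 105 on the KO-labelled array and 237 on the WT array (log2 ratio -1.18). Sparc, osteonectin, read 93.4 on the KO-labelled array and 169.5 on the WT array (log2 ratio -0.86), and its second probe set gave -1.26.

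By the brightest probe set of each gene, 0 of 19 measured genes of granule biogenesis and secretion passed 1.5-fold and the median log2 ratio was -0.01. The largest differences were those of Sytl4, a Rab27 effector (at least 1.38-fold lower, under the floor on the KO-labelled array), Slc18a2, the monoamine transporter of dense granules (log2 ratio -0.46), and Snap23, a SNARE of granule release (-0.34, with its other 2 measured probe sets at -0.77 and -0.09). Another probe set of Hps1, named after its value was seen, gave 0.60, past 1.5-fold, where its brightest gave 0.15. Rab27a, the close relative of Rab27b, read 1636 on the KO-labelled array and 1524 on the WT array, a log2 ratio of 0.10, and was named after its value was seen.

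Genes that activate alphaIIb-beta3 or signal in platelets stayed within 1.5-fold on their brightest probe sets, all 15 that were measured, with 12 positive ratios and a median of 0.12. A further measured probe set of Syk passed it downwards at -0.59, against 0.21 on its brightest. The other 6 measured probe sets of Gna13 ran from -0.59 to 0.52, against 0.12 on its brightest, and those of Tln1 gave -0.55 and -0.18 against 0.23. These 3 genes were named after their values were seen. Btk, a kinase downstream of GPVI, read 1714 on the KO-labelled array and 1169 on the WT array (log2 ratio 0.55). Pik3cb had a ratio of 0.40, and Rasgrp2, the activator of Rap1 in platelets, of 0.30 with its other 3 measured probe sets between 0.26 and 0.28. Of 8 measured cytoskeletal genes 0 passed 1.5-fold, with Tuba8 at 0.43, Flna at 0.25 and Myh9 at 0.18.

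Of 15 measured transcription factors of the lineage, 1 passed 1.5-fold. Runx1 read 414 on the KO-labelled array and 756 on the WT array with its brightest probe set (log2 ratio -0.87), while its other 4 measured probe sets lay between -0.16 and 0.28, and with the median over probe sets 0 of the 15 passed. Meis1 had a ratio of -0.43, with its others at -0.74 and 0.40, and Mafg, a partner of Nfe2, of 0.37. Gata1 read 125 on the KO-labelled array and 102 on the WT array (log2 ratio 0.28). Fli1 read 677 on the KO-labelled array and 676 on the WT array (0.0034), with its other measured probe set at 0.24. Gata1 and Fli1, the regulators whose letters were sought upstream, were named after their values were seen.

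The list of platelet-primed or aged HSC genes had the lowest median of the 8 lists. Of 9 measured, 1 passed 1.5-fold upwards and 4 downwards, with a median log2 ratio of -0.45. That median was -0.10 over 11 genes with no floor and 0.10 over the 2 genes left with the floor at percentile 75. Aldh1a1, a retinaldehyde dehydrogenase, read 270.2 on the KO-labelled array and 677 on the WT array (log2 ratio -1.32), and Nupr1, a stress-induced nuclear protein, read 79.0 on the KO-labelled array and 174 on the WT array (-1.14). Fhl1, a LIM domain protein, was at least 2.98-fold lower and Plscr2, a scramblase family member, had a ratio of -0.94. Plscr2 read 61.9 on the KO-labelled array, near the floor, and 119 on the WT array. The higher gene was Mt1, a metallothionein, with 1560 on the KO-labelled array and 542 on the WT array (log2 ratio 1.53).

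Markers of other cells moved between the same arrays, and in bulk RNA fewer cells of a type and less RNA per cell cannot be told apart. HSC markers passed 1.5-fold downwards on the KO-labelled array in 8 of 16 measured genes and upwards in 0, led by Fgd5 (log2 ratio -1.38), Mllt3 (-1.17) and Hlf (-1.13). Of the 16 ratios, 12 were negative and 4 positive, those of Cd48 (0.49), Flt3 (0.19), Cd34 (0.15) and Kit (0.03). Their summed signal was 13481 on the KO-labelled array and 15330 on the WT array. Cd34 (2846 on the KO-labelled array, 2566 on the WT array), Cd48 (2515 and 1790) and Flt3 (1659 and 1452), which progenitors carry, weigh heavily in these sums. The genes with positive ratios were named after their values were seen. Granulocyte markers were at least 1.5-fold higher in 8 of 10 and lower in 0, with sums of 29023 on the KO-labelled array and 18575 on the WT array, led by Lcn2 (1.26), Ms4a3 (1.17) and Ngp (0.84). Basophil and mast cell markers, cells that can also carry Itga2b, were higher in 3 of 6 and lower in 1, with sums of 2420 on the KO-labelled array and 1514 on the WT array, led by Fcer1a (1.18), Mcpt8 (1.14) and Cma1 (-0.89). Their part in the differences of Itga2b, Vwf, Pf4 and Rab27b was not tested.

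Endothelial cells also make Vwf and Selp. Their markers were at least 1.5-fold lower in 3 of 11 measured genes and higher in 1, led by Emcn (log2 ratio -1.50), Esam (-0.77) and Pecam1 (0.69). Their sums were 2858 on the KO-labelled array and 3576 on the WT array. Emcn read 62.5 on the KO-labelled array, near the floor, where ratios scatter widely, and 176 on the WT array. Of the 3 lower genes, Esam and Tek (-0.63) are counted among the HSC markers too. Tek was named after its value was seen. Of 13 listed, 11 lay above the floor on 1 array or both, and Cdh5 and Sox17 lay under it on both; these 2 were named after their values were seen. The part of endothelial cells in the values of Vwf and Selp was not tested. Erythroid markers were higher in 1 of 8 and lower in 2, with sums of 6100 on the KO-labelled array and 6437 on the WT array, led by Car1 (-1.96), Aqp1 (-0.98) and Tfrc (0.71). Monocyte and macrophage markers were higher in 1 of 9 by the brightest probe sets, led by F13a1 (1.57), Itgam (0.46) and Csf1r (0.45). Their sums were 4603 on the KO-labelled array and 3591 on the WT array. The other 2 measured probe sets of Csf1r gave 0.69 and 0.76, past 1.5-fold. Of the lymphoid markers 3 were measured and 2 were higher, Vpreb1 (1.78) and Igll1 (1.62), followed by Cd79a (at least 1.45-fold higher), with sums of 940.1 on the KO-labelled array and 394 on the WT array.

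**Figure D4:**
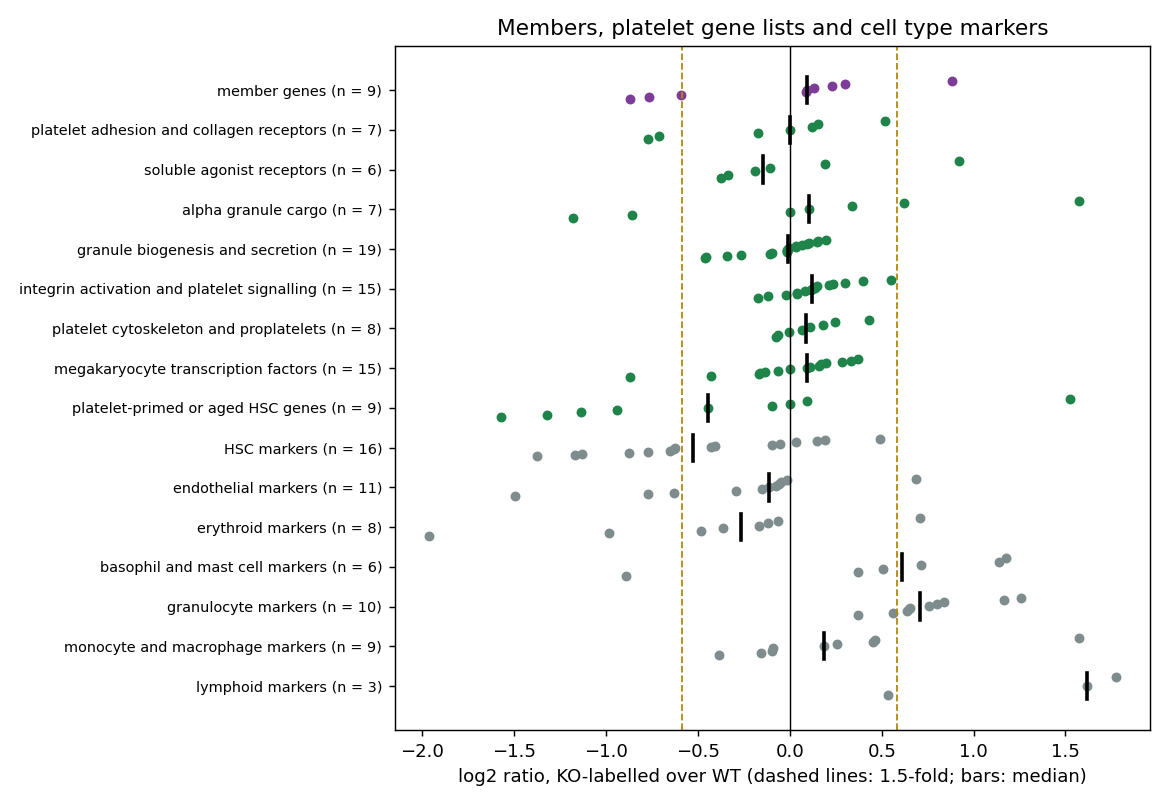
Log2 ratio of the KO-labelled array over the WT array (x axis) for each measured gene (point) of the 9 megakaryocyte and platelet genes (purple), the 8 lists of platelet and stem cell genes (green) and the cell type marker lists (grey), with the median of each list as a black bar and 1.5-fold as dashed lines. Platelet secretion, signalling and cytoskeleton genes stay between the dashed lines on their brightest probe sets, HSC markers extend to the left and granulocyte markers to the right.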

How the data were processed

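The labels give Trizol extraction, and biotin as the label, while the label protocol names Cy3-cRNA. Which of these was used is not settled here. The deposited table holds linear signal intensity values, 1 per probe set and array, made by the authors with MAS5 per the submitters' processing notes; the sources used here do not give the version, scaling target, detection calls or any genome build. Of 45037 probe sets, 34945 name 1 gene in the platform annotation, and 34741 of these matched RefSeq (GRCm38.p6) by Entrez identifier, with 0 symbols changed. Values were put on the log2 scale without further scaling. A value under the floor (60.5, percentile 50 of mean log2 signal) was raised to it, a ratio with 1 side under it is written "at least", and none is given with both under. The number of arrays limits the precision.

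Named were all members with every probe set, list genes past 1.5-fold or else the 3 largest per list, and 3 markers per cell type; other genes are marked in the text as named after their values were seen. Members and lists were chosen with earlier results of these data known. Protein sequences were not analysed here. The steps were tested on simulated data whose planted differences were larger than those of the members and lay in brighter genes only. That test therefore does not bear on differences of the size reported for the members. Python 3.11.15, numpy 2.4.6, pandas 2.3.3, statsmodels 0.14.6 and matplotlib 3.10.9 were used. Alternatives were quantile normalization, median centring, loess (span 0.3), other floors, a pseudocount, other probe set rules and a size of 2-fold.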

Additional observations from a re-analysis of the deposited data

How the results depend on the processing

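Of the 9 measured genes, Itga2b kept a log2 ratio between 0.83 and 0.89 and Pf4 between -0.76 and -0.70 under all 9 alternatives of scaling, floor and probe set, so both stayed past 1.5-fold. Vwf was -0.55 with a pseudocount of 1 floor, and with the floor at percentile 75 it was not measured. Rab27b was -0.060 with the floor at percentile 75, by construction, since its signal on the KO-labelled array was raised to that floor. Under the floor at percentile 75 and under the pseudocount, 1 gene and 1 probe set of the members remained at least 1.5-fold lower, those of Pf4. At 2-fold, 0 member genes and 0 member probe sets were higher and 0 lower, while 46 of all measured genes were higher and 66 lower. Over all measured genes, the counts at 1.5-fold were 461 higher and 462 lower with the floor at percentile 25, 83 and 93 at percentile 75, 986 and 693 with no floor, and 113 and 161 with the pseudocount. The median of the platelet-primed HSC genes was -0.10 with no floor, -0.94 without _x_at and _s_at probe sets and 0.10 at percentile 75, where 2 genes were left. With the pseudocount, 0 of 6 agonist receptors and 2 of 7 cargo genes passed 1.5-fold. The cause of the other shifts was not tested. No paired analysis was possible because each genotype had 1 array.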
